A study of Mus musculus with 16 samples.

Results

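The genes described here are 9 noncoding host genes of small nucleolar RNAs (snoRNAs), Gas5, Snhg1, Snhg3, Snhg4, Snhg5, Snhg6, Snhg8, Snhg12 and Snhg15, taken by gene symbol from the 47729 genes with values in each library. They were chosen by their LFC (log2 fold change) between damaged and control cochleae in IP and in input, after diphtheria toxin (DT), so that change is given below as values only and without a test. Of the 9 genes, 8 passed the filter on low values and were among the 16994 genes tested, and Snhg3 did not. The libraries came from cochleae of mice at postnatal day 4 (P4), from which the spiral ganglion, the lateral wall and Reissner's membrane had been dissected away. There were 4 groups of 4 libraries, an input and an IP group for control and for DTR animals.

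All animals carried GLAST CreERT/+ and Rpl22 HA/+ (RiboTag), in which tamoxifen lets Cre, expressed from the GLAST (Slc1a3) locus, put an HA tag on the ribosomal protein RPL22. DTR animals also carried Lgr5 DTR/+, a knock-in of the human DT receptor at the Lgr5 locus, which makes Lgr5+ supporting cells sensitive to DT. By the study's methods DT and tamoxifen were given at P1 to animals of either genotype, but the labels of control samples read as untreated. Each replicate was a pool of 8 cochleae from 4 mice, of whose homogenate 5% gave the input library and 95% the IP library made with an anti-HA antibody. Input therefore holds RNA of the whole dissected tissue, and IP holds RNA pulled down with tagged ribosomes, which GLAST-Cre is meant to place in greater epithelial ridge (GER) and inner phalangeal cells. In such bulk samples fewer cells of a type and less RNA per cell cannot be told apart.

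A snoRNA host gene carries snoRNAs in its introns, which are cut out and guide the chemical modification of ribosomal and spliceosomal RNAs. The exons that remain are spliced into an RNA without a long reading frame, which ribosomes nevertheless engage and which, for several hosts, is degraded by nonsense-mediated decay (NMD), a pathway that acts during translation. Many hosts start with a run of pyrimidines, the 5' terminal oligopyrimidine (TOP) feature they share with ribosomal protein genes. DT modifies elongation factor eEF2 and so stops translation elongation in the cells it enters.

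Start sites are shown because the TOP feature is what the class is best known for. The windows run from 25 bases before the start annotated by RefSeq to 25 bases from it, on build GRCm38.p6, with the longest run of pyrimidines in capitals. For Gas5, which has 2 annotated starts, the one with the longer run is shown. The longest run at the other Gas5 start had 3 bases, a length that 96.3% of all windows reached.
Snhg1, chr19:8723462-8723511, plus strand: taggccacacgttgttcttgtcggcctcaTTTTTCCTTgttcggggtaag
Snhg12, chr4:132308653-132308702, plus strand: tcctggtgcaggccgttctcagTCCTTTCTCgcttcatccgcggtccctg
Snhg5, chr9:88522873-88522922, minus strand: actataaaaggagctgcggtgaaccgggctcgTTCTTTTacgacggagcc
Snhg8, chr3:123508312-123508361, minus strand: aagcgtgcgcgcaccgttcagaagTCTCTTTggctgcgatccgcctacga
Gas5, chr1:161035141-161035190, plus strand: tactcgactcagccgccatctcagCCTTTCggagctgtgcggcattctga
Snhg3, chr4:132353662-132353711, minus strand: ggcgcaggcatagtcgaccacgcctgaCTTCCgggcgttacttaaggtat
Snhg15, chr11:6528736-6528785, minus strand: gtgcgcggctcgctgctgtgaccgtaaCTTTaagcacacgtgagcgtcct
The run was 9 bases long in Snhg1 and Snhg12, a length that 13.3% of all RefSeq windows reached. It was 7 bases in Snhg5 and Snhg8 (29.3% of all windows), 6 in Gas5 (43.9%) and 5 in Snhg3 (64.8%). In Snhg15 the longest run had 4 bases, a length reached by 84.4% of all windows. Counting the annotated start as the first base, the run began at base 5 in Snhg1, 8 in Snhg5, and 3 in Snhg3 and Snhg15. With bases before the start negative, it began at -3 in Snhg12 and at -1 in Snhg8 and Gas5. The length of a run alone does not show that the RNA starts with it. Snhg4 and Snhg6 are named only.

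The promoter window of Snhg15 is shown because this gene differed most between treatments, and that of Gas5 because it holds the same 8-letter motif. Each window runs from 250 bases before the RefSeq start to 50 bases from it. Capitals mark the cAMP response element TGACGTCA (CRE) and the E-box CACGTG, both of which read the same on either strand.
Snhg15, chr11:6528711-6529010, minus strand: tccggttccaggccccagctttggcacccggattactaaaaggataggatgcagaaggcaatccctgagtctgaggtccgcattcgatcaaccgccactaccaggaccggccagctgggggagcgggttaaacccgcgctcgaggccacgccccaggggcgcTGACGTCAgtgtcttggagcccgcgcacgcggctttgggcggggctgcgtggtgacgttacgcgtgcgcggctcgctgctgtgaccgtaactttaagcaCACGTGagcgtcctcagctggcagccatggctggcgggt
Gas5, chr1:161034916-161035215, plus strand: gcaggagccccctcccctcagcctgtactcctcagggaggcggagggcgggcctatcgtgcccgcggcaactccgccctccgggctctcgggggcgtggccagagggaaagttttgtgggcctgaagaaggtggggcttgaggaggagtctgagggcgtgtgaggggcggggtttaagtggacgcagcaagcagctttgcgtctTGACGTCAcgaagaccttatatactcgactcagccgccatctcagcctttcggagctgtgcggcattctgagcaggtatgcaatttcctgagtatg
The CRE began 88 bases before the start of Snhg15 and 46 bases before that of Gas5, and 1.79% of 32841 windows held one. The window at the other Gas5 start held none of the motifs searched, and those of Snhg1, Snhg3, Snhg5, Snhg8 and Snhg12 held no CRE and no E-box. The E-box began 11 bases after the start of Snhg15, and 7.15% of windows held one. The shorter TGACG, searched on both strands and contained in the CRE in both directions, was in 20.8% of windows. It matched 3 times each in Snhg15 and Snhg8, and 2 times each in Snhg12 and the Gas5 window shown. The windows of Snhg1, Snhg3 and Snhg5 held 0 matches. These matches describe the letters only.

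The 8 members with an entry in GENCODE M21 (GRCm38) lie on 6 chromosomes. Snhg15 spans chr11:6525591-6528760 on the minus strand, Gas5 chr1:161034422-161038539 on the plus strand and Snhg1 chr19:8723475-8726443 on the plus strand. Together they enclose 30 annotated snoRNA genes, of which Gas5 holds 10, Snhg1 8, Snhg12 5, Snhg3 and Snhg5 2 each, and Snhg6, Snhg8 and Snhg15 1 each. These are annotation entries, and Snord80 in Gas5 and Snora16a in Snhg12 are each counted under 2 overlapping entries. The one inside Snhg15 is Snora9, a box H/ACA snoRNA that guides pseudouridylation, shown here as the product of the member that differed most, with the ACA box 3 bases from its end in capitals.
Snora9, chr11:6528033-6528165, minus strand: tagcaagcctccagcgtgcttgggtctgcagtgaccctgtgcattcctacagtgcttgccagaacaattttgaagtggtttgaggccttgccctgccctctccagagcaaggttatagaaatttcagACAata
Of the 30 embedded snoRNA genes, 29 had no read in any library, and Snord87 inside Snhg6 had 57 reads over the 16 libraries. Libraries were primed on poly(A) tails, which mature snoRNAs lack, so the values below are those of the host RNAs and say nothing of the snoRNA levels.

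Lgr5, the gene that carries the DT receptor, was at 63.3 ± 3.03 CPM (read counts scaled to a fixed total per library; mean ± SD, n = 4) in control input and 15.9 ± 3.69 in DTR input. It fell by 2.00 on the log2 scale in input and by 1.93 in IP (limma, adjusted p = 2.23e-08 and 3.47e-08). Depth was between 28089836 and 41966310 reads on genes per library, and 3 reads correspond to 0.0715 to 0.107 CPM (counting error only). Slc1a3, whose locus drives Cre, was lower in IP than in input, with an LFC of -0.23 (SE 0.0657, limma adjusted p = 0.00618), with means of 215 to 281 CPM over the 4 groups. Over both treatments 0 of the 6 markers of supporting and GER cells, Slc1a3 among them, were higher in IP and 3 lower (limma). The median LFC was -0.20, with Otoa the lowest at -1.63. At an unadjusted p under 0.05 and with DESeq2 again 0 were higher, and 1 with edgeR. In control alone 2 of the 6 were higher in IP and 2 lower, and in DTR 0 were higher and 2 lower (limma). Sox2 was at 69.9 ± 4.41 CPM in control input and 89.9 ± 5.42 in control IP. Fabp7 was at 248 ± 9.48 and 368 ± 48.0 CPM there, and Otoa at 926 ± 226 and 323 ± 37.7 (n = 4 each). Over both treatments these markers, as a set, do not show an enrichment of those cells in IP. Markers of Schwann cells, macrophages, endothelium and erythroid cells, 16 genes in all, were each lower in IP than in input (limma), as were 5 of 6 hair cell markers, 3 of 4 neuronal and 3 of 4 mesenchymal markers, with 1 hair cell and 1 mesenchymal marker higher. None of these lists was at 0 in IP.

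Snhg15 was by far the member with the largest difference between control and DTR cochleae. In control input the 4 libraries were at 3.41, 5.15, 5.05 and 6.93 CPM, and in DTR input at 94.9, 86.4, 74.2 and 72.4 CPM. In control IP they were at 8.19, 11.9, 6.32 and 6.67 CPM, and in DTR IP at 54.1, 46.6, 61.4 and 57.2 CPM. Every DTR library was thus above every control library, within IP and within input. The means were 5.14 ± 1.44 and 82.0 ± 10.6 CPM in input (n = 4 each), a ratio of 16, and 8.26 ± 2.54 and 54.8 ± 6.25 CPM in IP, a ratio of 6.64. On the log2(CPM + 0.5) scale used for all fold changes here (LFC), the difference was 3.90 in input and 2.60 in IP (SE 0.181 each). Ordered by LFC from the highest, Snhg15 took place 15 of the 16994 tested genes in input and place 45 in IP. The difference was smaller in IP than in input by 1.30 (SE 0.256). All of these values come from the contrasts that led to the choice of the gene, and no test is given for them.

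**Figure D1:**
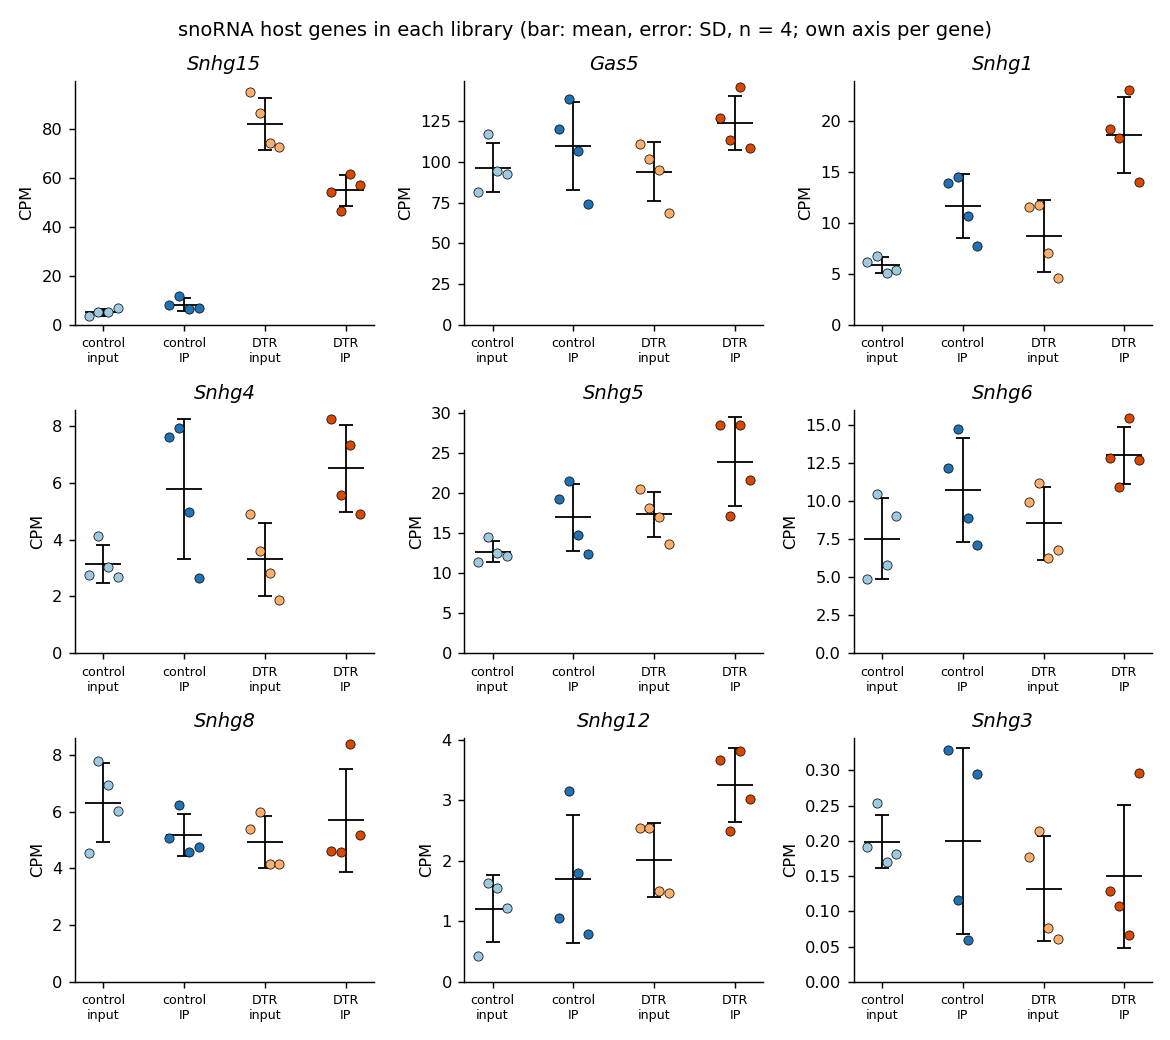
CPM of the 9 snoRNA host genes in each library of the 4 groups, with the mean and SD of 4 libraries as bars and a separate axis for each gene. Snhg15 lies between 3.41 and 11.9 CPM in all control libraries and between 46.6 and 94.9 CPM in all DTR libraries, whereas the groups of the other members overlap between treatments.

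The sign of IP minus input for Snhg15 was not the same in the treatments. In control pools IP minus input was 1.15, 1.13, 0.30 and -0.05 on the log2 scale. In DTR pools it was -0.80, -0.88, -0.27 and -0.34. IP was higher in 3 of the 4 control pools and in none of the 4 DTR pools, and all DTR IP libraries lay below all DTR input libraries. The fitted values were 0.70 in control and -0.60 in DTR (SE 0.181 each), given as a description.

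The other 8 members differed less between treatments, and the groups of each overlapped in IP and in input. Snhg1, a host of several box C/D snoRNAs, was at 13.8, 14.4, 10.6 and 7.68 CPM in control IP and at 19.2, 18.3, 23.0 and 13.9 CPM in DTR IP. Only the lowest DTR library lay within the range of the control libraries. The LFC was 0.59 in IP and 0.43 in input (SE 0.236 each). Snhg12 was at 1.05, 3.14, 1.79 and 0.785 CPM in control IP and at 3.66, 2.49, 3.81 and 3.03 CPM in DTR IP. Here 1 control library reached into the range of the DTR group. Its LFC was 0.73 in IP and 0.44 in input (SE 0.279 each), on 187 to 391 reads per group.

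Snhg5 was at 19.2, 21.5, 14.7 and 12.4 CPM in control IP and at 28.5, 17.1, 28.5 and 21.6 CPM in DTR IP. Its LFC was 0.43 in IP and 0.42 in input (SE 0.172 each). Among the remaining members the LFC had different signs in IP and in input for Gas5 and Snhg4, and Snhg8 had the lowest LFC in input, from 6.32 ± 1.40 CPM in control to 4.93 ± 0.912 CPM in DTR (n = 4 each). Gas5, the growth arrest transcript and the most abundant member in control tissue, had an LFC of 0.19 in IP and -0.04 in input (SE 0.170 each). The LFC was 0.23 and 0.16 for Snhg6, 0.13 and -0.08 for Snhg4, and -0.02 and -0.39 for Snhg8 (SE 0.203 each), in IP and in input.

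Over the 8 tested members the median LFC was 0.33 in IP and 0.29 in input, against medians of -0.00 and -0.02 over all tested genes. These medians move with single libraries: without 1 library at a time the input value lay between 0.09 (without control input replicate 1) and 0.39, and the IP value between 0.22 (without control IP replicate 4) and 0.43. Of the 9 members, 1 (Snhg15) was past an adjusted p of 0.05 and higher in DTR IP, where 8.44% of all tested genes were, and 1 in DTR input, where 7.17% were. None of the 8 was lower, where 7.30% of tested genes in IP and 5.21% in input were. The groups of 1 member did not overlap, again Snhg15, where 10.5% of tested genes in IP and 11.6% in input were higher in DTR without overlap. Nothing is read from these counts, since the choice of the members used the same contrasts. Snhg3, which hosts the box H/ACA snoRNAs Snora73a and Snora73b, was at 0.0588 to 0.329 CPM in all 16 libraries, on 18 to 31 reads per group. A difference between its groups was not detectable at this depth.

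**Figure D2:**
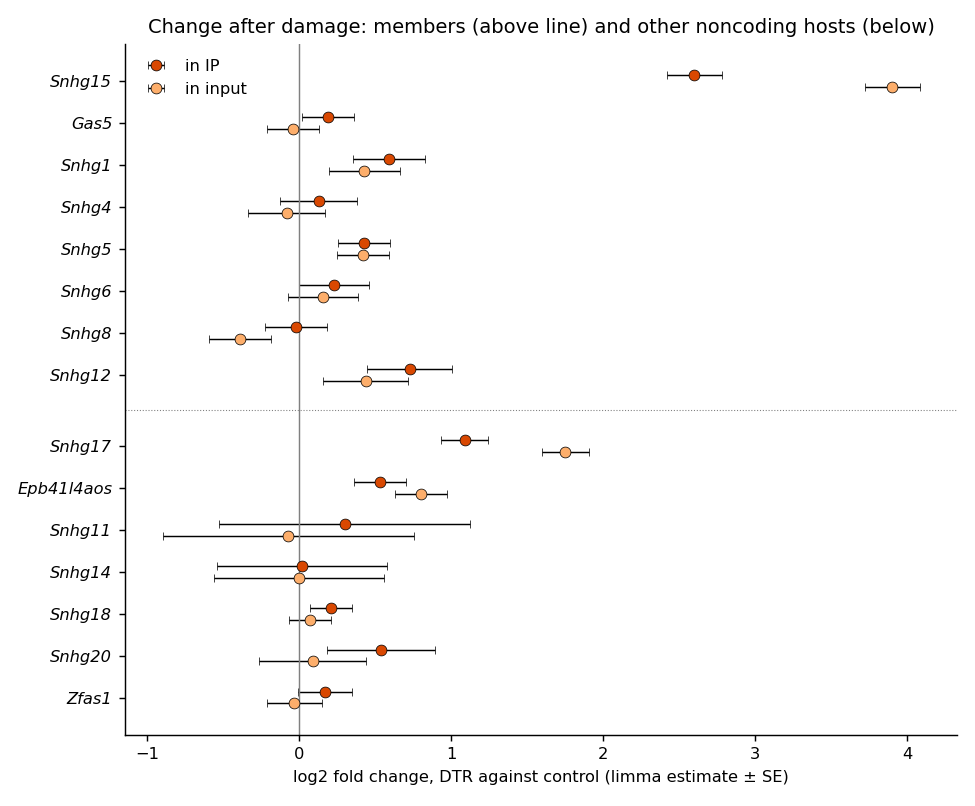
LFC of DTR against control in IP (dark) and in input (light) with its standard error, for the 8 tested members above the dotted line and 7 other noncoding snoRNA hosts below it. Snhg15 lies at 2.60 and 3.90, the other members lie between -0.39 and 0.73, and Snhg17 lies at 1.09 and 1.75.

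Levels can be compared between members only per length. Per kb of annotated exons, Gas5 was the highest in control input (25.7 ± 4.00 CPM per kb) and its range did not meet that of the next member. Snhg8 (7.41 ± 1.64), Snhg5 (7.31 ± 0.765) and Snhg6 (6.59 ± 2.30) followed with overlapping ranges, then Snhg15 (3.78 ± 1.06), Snhg1 (1.98 ± 0.259) and Snhg12 (0.502 ± 0.228 CPM per kb, n = 4 each). In DTR input Snhg15 stood first with 60.3 ± 7.82 CPM per kb, above all libraries of Gas5 (25 ± 4.86). In DTR IP Snhg15 had 40.4 ± 4.6 and Gas5 32.9 ± 4.42 CPM per kb, with overlapping ranges. The order depends on the length used, since the annotated exons include retained introns: per kb of 1 spliced transcript per gene (502 bases for Gas5, 592 for Snhg15), Gas5 stayed first in DTR input with 188 ± 36.4 against 138 ± 17.9 CPM per spliced kb. No length was at hand for Snhg4.

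**Figure D3:**
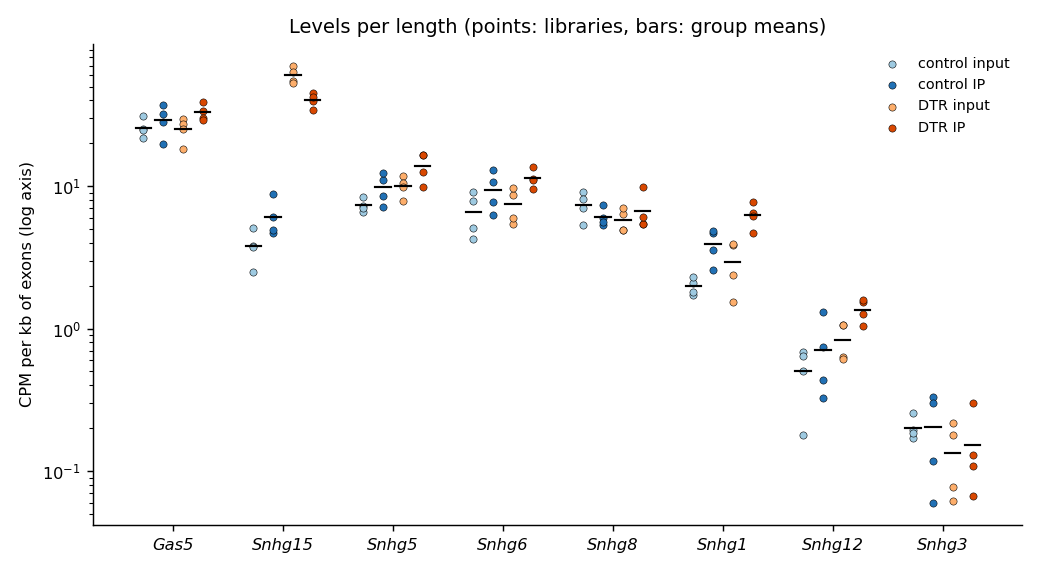
CPM per kb of annotated exons on a log axis for the 8 members with a length, with 1 point per library and a bar at the mean of each of the 4 groups. Gas5 has the highest mean in both control groups and Snhg15 in both DTR groups, where its means are 60.3 in input and 40.4 in IP.

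As a share of the summed CPM of the 9 members, Snhg15 made up 2.96% to 5.72% in the 8 control libraries. It made up 35.7% to 41.7% in DTR input and 20.9% to 25.1% in DTR IP. Without Snhg15 the summed CPM of the other 8 members was 112 to 163 in control input, 101 to 166 in DTR input, 110 to 207 in control IP and 170 to 232 in DTR IP, so the treatment groups overlapped in IP and in input.

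Whether the host RNAs were more or less abundant on tagged ribosomes than in the whole tissue is a question the choice of the members did not use, and it was tested. Before its clustering the paper corrected for an effect of gene length that differed between samples in IP. No fit here did so, and the part of length in the IP against input differences was not tested. Over both treatments 6 of the 9 members (8 of them tested) were higher in IP than in input and none was lower, while 25.8% of all tested genes were higher and 28.0% lower (limma). At an unadjusted p under 0.05 none was lower either, and neither edgeR nor DESeq2 called one lower, while each of these tools called 5 higher. Within control alone 3 of the 8 were higher and 0 lower, and within DTR 3 were higher and 1 (Snhg15) lower (limma). These counts are a description. Over all tested genes 6787 were called in control and 6656 in DTR, 48.2% and 47.6% of them higher. Snhg1 showed the largest difference. It was at 6.2, 6.79, 5.10 and 5.38 CPM in control input against 13.8, 14.4, 10.6 and 7.68 in control IP, and at 11.5, 11.7, 7.05 and 4.57 CPM in DTR input against 19.2, 18.3, 23.0 and 13.9 in DTR IP. IP was higher than input in 8 of 8 pools and the groups did not overlap within either treatment. The LFC was 1.04 (SE 0.167, adjusted p = 3.58e-05 by limma).

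Snhg4 was higher in IP in 7 of 8 pools, from 3.13 ± 0.669 to 5.78 ± 2.47 CPM in control and from 3.30 ± 1.29 to 6.5 ± 1.54 CPM in DTR (n = 4 each), with an LFC of 0.89 (SE 0.180, limma adjusted p = 0.000390). Snhg6, host of the box C/D snoRNA Snord87, was higher in 6 of 8 pools with an LFC of 0.58 (SE 0.164, limma adjusted p = 0.00571). Snhg5, host of Snord50a and Snord50b, was higher in 7 of 8 pools with an LFC of 0.40 (SE 0.121, limma adjusted p = 0.00920). These 4 members were past the threshold under each of the 25 alternatives run, in which the highest adjusted p was 0.0225.

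Gas5 and Snhg12 passed the threshold in fewer of the alternatives, 13 and 10 of 25. Gas5 was higher in 7 of 8 pools, from 96.5 ± 15 to 110 ± 27.1 CPM in control and from 94.2 ± 18.3 to 124 ± 16.6 CPM in DTR, with an LFC of 0.31 (SE 0.120, limma adjusted p = 0.0369). Snhg12 was higher in 6 of 8 pools with an LFC of 0.50 (SE 0.198, limma adjusted p = 0.0415), and neither edgeR (0.0810) nor DESeq2 (0.0649) called it. Leaving out 1 library took the Gas5 call away in 9 of 16 cases (adjusted p up to 0.0852) and the Snhg12 call in 9 of 16 cases (up to 0.10). None of these fits pairs IP with the input of the same pool. A limma fit with the pool as a block called 6 members higher in IP, Gas5 and Snhg12 among them.

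**Figure D4:**
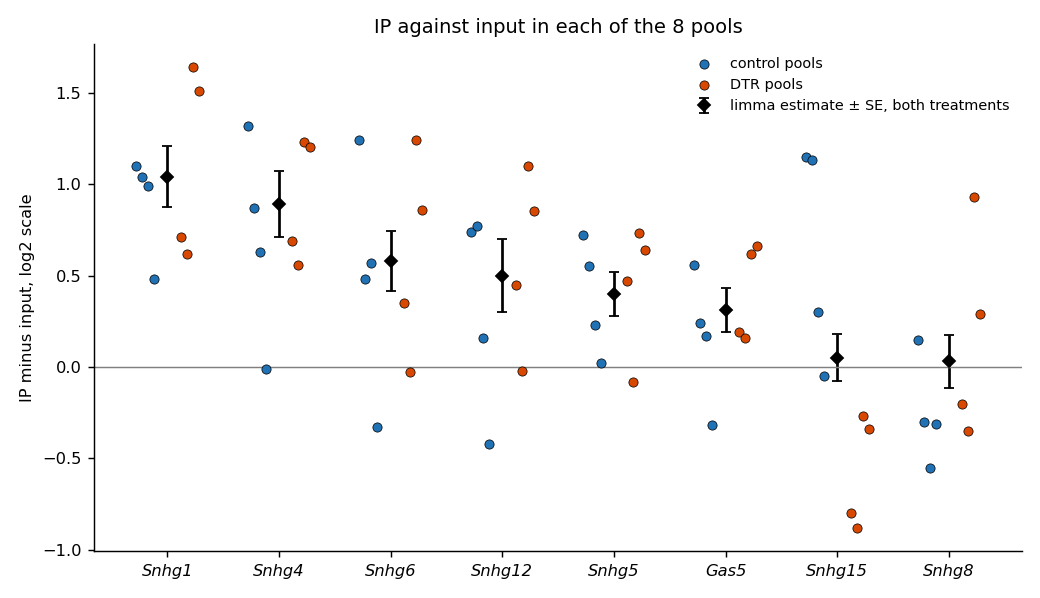
IP minus input on the log2 scale in each of the 4 control and 4 DTR pools for the 8 tested members, with the limma estimate over both treatments and its standard error. All 8 pools of Snhg1 lie above 0, whereas for Snhg15 the control pools lie between -0.05 and 1.15 and the DTR pools between -0.88 and -0.27.

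Snhg8 and Snhg15 did not pass this test. Snhg8 had an LFC of 0.03 (SE 0.144, limma adjusted p = 0.858) and was higher in IP in 3 of 8 pools, and the sign of its LFC turned with the scaling (-0.06 with libraries centred on their medians). For Snhg15 the LFC of 0.05 (SE 0.128, limma adjusted p = 0.763) is the mean of the opposite values in control and DTR pools given above. Zbtb37, opposite to Gas5, shares no exonic base with it in the annotation and was itself higher in IP (LFC 1.44, SE 0.138, limma adjusted p = 7.69e-08). Mcmdc2, opposite to Snhg6 with 127 shared exonic bases, had 5 to 34 reads per group against 1166 to 1563 for Snhg6. The kit does not mark strand, so reads of such a pair cannot be told apart where exons are shared. Snhg3 shares 135 exonic bases with Rcc1 on its own strand and 705 with Gm17300 on the other.

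The nuclear RNAs Malat1 and Kcnq1ot1, which are retained in the nucleus, were higher in IP as well, by an LFC of 0.76 (SE 0.223, limma adjusted p = 0.00796) and 1.64 (SE 0.249, limma adjusted p = 1.95e-05), while Neat1 and Miat did not pass the test. The summed CPM of these and Meg3 was 853 to 2160 in control IP and 1700.4 to 4007 in DTR IP. Their part in the IP values of the host genes was not tested. For the cytosolic ribosomal protein genes, whose RNAs are known for the TOP feature, the direction was the opposite: 46 of 83 tested were lower in IP and 2 higher (limma).

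The members deviated in the same libraries. After removal of the group means, the deviations of the 8 members over the 16 libraries were positively correlated in 28 of 28 pairs, with a median r of 0.605 (range 0.26 to 0.92). This is a description, since all genes of a library share its RNA preparation and depth. No such value was computed for pairs of other genes. Over all tested genes, same-numbered libraries of different groups also deviated together, with a mean r of 0.357 to 0.407. Control IP replicate 2 had the highest value of its group in 8 of 8 members, against 36.2% of all tested genes, and control IP replicate 4 the lowest in 6 of 8, against 41.5%. In control input replicate 2 was the highest in 7 of 8 members (26.6% of all tested genes) and replicate 1 the lowest in 6 of 8 (31.6%). In DTR IP replicate 3 was the highest in 6 of 8 members (27.5%), and in DTR input replicate 4 was the lowest in 6 of 8 (28.6%).

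Other noncoding snoRNA hosts, which the choice of the members did not include, were tested after damage. Their list and those below were chosen with earlier results of these data known, so they are no independent test. Of 12 other noncoding hosts on the list, 10 had values and 7 were tested. In IP 2 were higher in DTR and none lower, and in input 2 were higher and none lower, the same 2 genes: Snhg17 and Epb41l4aos. At an unadjusted p under 0.05, and with edgeR and with DESeq2, the counts were again 2 higher and 0 lower in each. Beside the limma counts of this list and those below, 8.44% of all tested genes were higher in DTR IP and 7.17% in DTR input. Lower were 7.30% and 5.21%. Snhg17 was at 11.1, 17.5, 17.5 and 15.8 CPM in control input and at 59.8, 65.3, 38.4 and 51.4 CPM in DTR input. In IP it was at 21.4, 24.7, 21.5 and 17.3 CPM in control and at 46.8, 49.0, 43.9 and 46.3 CPM in DTR. The groups did not overlap, and Snhg17 rose by an LFC of 1.75 in input and 1.09 in IP (SE 0.154 each, limma adjusted p = 1.87e-07 and 5.65e-05).

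Epb41l4aos was at 5.77 ± 1.22 and 10.6 ± 2.59 CPM in control and DTR input and at 5.44 ± 0.783 and 8.74 ± 1.23 CPM in control and DTR IP (n = 4 each). It rose by 0.80 in input (SE 0.171, limma adjusted p = 0.00348) and by 0.53 in IP (adjusted p = 0.0444), the latter lost in 11 of 16 cases without 1 library (adjusted p up to 0.122). Snhg11, Snhg14, Snhg18, Snhg20 and Zfas1 did not pass the test in either comparison. Snhg11 varied widely within groups, from 10.5 to 140 CPM in DTR IP. The median LFC of the 7 genes was 0.30 in IP and 0.07 in input.

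Host genes that code for proteins make the same kind of introns but a translated mRNA. Of 13 tested, 4 rose in DTR IP (Gnl3, Taf1d, Wdr43 and Ncl) and 3 in DTR input (Taf1d, Gnl3 and Wdr43), and none passed the test as lower with limma, while 1 was lower in DTR IP at an unadjusted p under 0.05, and edgeR and DESeq2 each called Eif4a1 lower in DTR IP (adjusted p = 0.0234 and 0.0101). The median LFC of the 13 genes was 0.21 in IP and 0.08 in input. Taf1d, a subunit of the RNA polymerase I factor SL1, went from 10.8 ± 2.63 to 24.6 ± 6.44 CPM in input and from 22.9 ± 6.70 to 45.2 ± 8.86 in IP (LFC 1.15 and 0.94, SE 0.210, limma adjusted p = 0.000825 and 0.00420). Gnl3, the nucleolar GTPase nucleostemin, rose by 0.90 in input and 0.94 in IP (SE 0.158, limma adjusted p = 0.000571 and 0.000322). Wdr43, a factor of small-subunit assembly, rose by 0.48 and 0.49 (SE 0.0966, limma adjusted p = 0.00214 and 0.00147). Nucleolin (Ncl) rose in IP by 0.35 (SE 0.0932, limma adjusted p = 0.0151), a call that edgeR (0.177) and DESeq2 (0.146) did not make.

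Of the 8 tested proteins that form snoRNPs with the snoRNAs, Nop56 and Nop58, the paired core proteins of box C/D snoRNPs, rose in both comparisons and none fell, with medians over the list of 0.04 in IP and 0.12 in input. Nop58 went from 55.5 ± 2.57 to 92.3 ± 17.7 CPM in input (LFC 0.69, SE 0.123, limma adjusted p = 0.000676) and from 47.1 ± 3.49 to 74.1 ± 14.4 in IP (LFC 0.61, adjusted p = 0.00175). Nop56 rose by 0.60 in input and 0.54 in IP (SE 0.130, limma adjusted p = 0.00414 and 0.00769). Fbl, the box C/D methyltransferase, and the box H/ACA proteins Dkc1, Nhp2, Nop10 and Gar1 had LFC between -0.11 and 0.20 and did not pass the test.

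Among 10 NMD factors, Upf2 (LFC 0.70, SE 0.153, limma adjusted p = 0.00347) and the kinase Smg1 (0.63, SE 0.159, adjusted p = 0.0104) rose in DTR IP, and Upf3a in DTR input (0.38, SE 0.107, adjusted p = 0.0224). Upf3a lost its call without DTR input replicate 1, control input replicate 3 or control input replicate 4 (adjusted p up to 0.0815). Of 6 mRNAs known as NMD targets, 4 rose in both comparisons and none fell. Atf3, a stress-induced transcription factor, went from 2.67 ± 0.499 to 22.9 ± 5.65 CPM in input and from 2.35 ± 0.711 to 17.7 ± 3.68 in IP (LFC 2.86 and 2.55, SE 0.227, limma adjusted p = 4.36e-08 and 1.95e-07). Gadd45b rose by 1.72 and 1.15, Atf4 by 1.18 and 1.01, and Ddit3 by 1.04 and 0.76, in input and in IP (limma adjusted p from 1.34e-08 to 0.000233), whereas Gadd45a and Tbl2 had LFC between -0.12 and 0.06. The 4 that rose are also known as stress response genes with transcriptional control of their own. The paper had already reported Atf3 as higher after damage in these data. For ribosomal protein genes 2 of 83 rose in DTR IP and 1 in DTR input, and none fell, with 16 and 3 higher and 0 lower at an unadjusted p under 0.05. Counts of edgeR were 1 and 1 higher, and of DESeq2 2 and 2, with 0 lower by either tool. A fit with the replicate number as a block called 17 of 83 higher in DTR IP. Over all tested genes that fit called 4172 there, 51.8% of them higher, against 2674 and 53.6% without the block. The share of all tested genes at an unadjusted p under 0.05 was not counted. For the lists of snoRNP proteins, NMD factors and NMD targets the count of lower genes was 0 also at an unadjusted p under 0.05 and with edgeR and DESeq2. Median LFC in IP and in input were 0.25 and 0.17 for NMD factors, 0.89 and 1.11 for NMD targets, and 0.16 and -0.01 for ribosomal protein genes. All of these lists share their control libraries with the values of the members above.

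**Figure D5:**
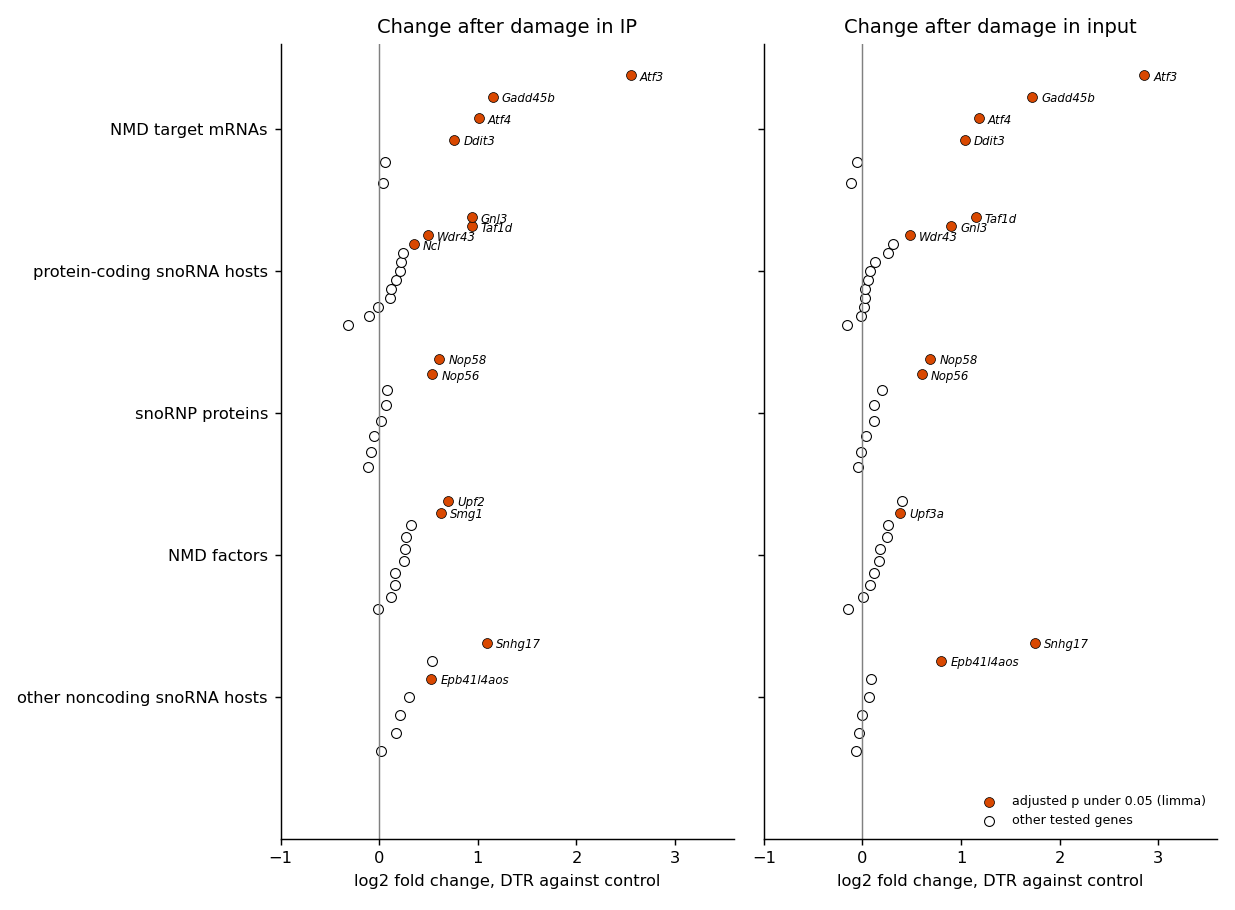
LFC of DTR against control in IP (left) and in input (right) for each tested gene of 5 lists related to snoRNA hosts and NMD, filled where the limma adjusted p was under 0.05. Atf3 lies furthest out with 2.55 and 2.86, and in each list the genes past the threshold lie above 0.

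Cell type markers moved with the damage groups too. The summed CPM of 5 macrophage markers was 8.73 to 14.6 in control IP and 21.5 to 33.4 in DTR IP, 4 of the 5 rising in IP and 3 in input (limma). The sum of 5 Schwann cell markers was 2319 to 4319 CPM in control input and 1161 to 1892 in DTR input, and 4 of 6 markers of supporting and GER cells fell in DTR IP. Their part in the values of the host genes was not tested.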

How the data were processed

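Gene expression was measured in 16 libraries, an input and an IP library from each of 8 pools. The authors aligned reads with HISAT2, counted them per gene with HTSeq and deposited CPM (read counts scaled to a fixed total) per library, while the submitters' processing notes name TopHat and GRCm38. The strand setting and annotation release are not given in the sources used here. Of 50316 listed genes, 2587 had no value. Values above 0 came out as whole reads in 100.0% of cases (tolerance 0.02), so read counts could be recovered. CPM were quantile-normalized and analysed as log2(CPM + 0.5) with limma 3.58.1 in R 4.3.3, keeping genes at 0.5 CPM or more in all 4 replicates of at least 1 group, with Benjamini-Hochberg adjustment over all 16994 tested genes and a threshold of 0.05. The script was tested on simulated data. Alternatives were edgeR 4.0.16 and DESeq2 1.42.0 on recovered reads, other pseudocounts, filters and scalings, a replicate block and leaving out each library. Samples were grouped by their labels. The replicate numbers (the fourth is numbered 6 in the deposited data) pair the libraries: same-numbered libraries deviated together, with a lowest correlation of 0.288 over the 4 pairs of groups, and IP and input of a pool share a homogenate. Named were all members, genes overlapping or inside them, up to 4 genes with the largest change per list and the 5 genes most like Snhg15. Members and lists were chosen with earlier results of these data known. Positions came from GENCODE M21, and sequences from RefSeq for 7 of 9 members.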

Additional observations from a re-analysis of the deposited data

Results flagged for a closer look

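Among 60 groups of 4 libraries examined for members and other noncoding hosts, 3 held a library that stood apart from the rest by Dixon's criterion, and chance alone does so in about 1 of 20 groups. Snhg8 was at 8.38 CPM in DTR IP replicate 3, against 4.59 to 5.20 CPM in the other libraries of that group. Epb41l4aos was at 7.57 CPM in control input replicate 2, against 4.91 to 5.36 CPM, and at 6.61 CPM in control IP replicate 2, against 4.96 to 5.14 CPM. Input and IP replicate 2 of the control group come from 1 homogenate.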

How the results depend on the processing

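With the replicate block, which fits the pairing of the libraries, the count of genes higher in DTR IP over the lists of protein-coding hosts, snoRNP proteins, NMD and ribosomal protein genes went from 14 to 29, and 6 members stayed higher in IP than in input. Under the block 17 ribosomal protein genes in place of 2 were higher there, and 2 NMD factors in place of 1 were higher in DTR input. The block also called more of all tested genes, in either direction. These were 4172 in place of 2674 between DTR IP and control IP, and 3202 in place of 2104 in input. No member or list gene named in the report as past the threshold lost its call. The count of lower genes in these lists went from 0 to 1 with the replicate block, median centring, DESeq2 and edgeR, and was 0 to 1 without single libraries, where the higher count was 12 to 17. For other noncoding hosts the count higher in DTR IP went from 2 to 1 with no filter on low values and was 1 to 2 without single libraries. Between 4 and 6 members were called higher in IP than in input over all alternatives. The IP against input difference of Snhg8 changed sign with median centring (-0.06), without quantile normalization (-0.04), with DESeq2 (-0.02) and with edgeR (-0.01), and was -0.06 to 0.09 without single libraries (-0.06 without DTR IP replicate 3, -0.03 without control input replicate 1). That of Snhg15 was -0.03 to 0.13 (-0.02 without control IP replicate 2, -0.03 without control input replicate 1), and that of Miat -0.03 to 0.25 (-0.03 without DTR IP replicate 1). The cause was not tested. The Snhg15 difference after damage was 2.51 to 2.73 in IP and 3.74 to 4.05 in input without single libraries. Depth limits Snhg3 most. With 4 pools per group the limma adjusted p-values of Gas5 and Snhg12 (IP against input) and of Epb41l4aos in DTR IP lie close to the threshold. Epb41l4aos in DTR input stayed past it in 25 of 25 alternatives. The calls of Ncl in DTR IP and Upf3a in DTR input held in 20 and 22 of 25.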

Other observations

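The 5 tested genes whose log2 values were most like those of Snhg15 over the 16 libraries were Zmynd15, 1700086P04Rik, Prl2a1, Madcam1 and Parp3, with Pearson r from 0.978 to 0.979, a description of libraries that share the treatment difference by which Snhg15 was chosen. Madcam1, an adhesion molecule that binds lymphocyte integrins, was at 0.134 ± 0.0689 CPM in control input and 31.3 ± 3.75 CPM in DTR input, and at 0.118 ± 0.118 and 20.8 ± 2.48 CPM in IP (SD, n = 4). Parp3, an ADP-ribosyltransferase that acts at DNA breaks, was at 3.21 ± 0.418 and 27.8 ± 6.34 CPM in input and at 3.84 ± 1.10 and 24.7 ± 2.48 CPM in IP. Zmynd15 was at 1.92 ± 0.512 and 19.0 ± 2.79 CPM in input and at 1.89 ± 0.393 and 15.5 ± 0.808 CPM in IP. Prl2a1, of the prolactin family, lay under the level of 3 reads in control libraries on average and at 8.19 ± 1.86 CPM in DTR input.

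Of the other noncoding hosts, Snhg20 and Snhg14 were higher in IP than in input over both treatments, by 1.99 and 1.36 on the log2 scale (limma adjusted p = 2.23e-06 and 0.00732), and Snhg18 was lower, with -0.39 (limma adjusted p = 0.00218). Snhg11 had an LFC of 0.95 that did not pass the test (limma adjusted p = 0.180) but did with the replicate block, which pairs IP and input of a pool (adjusted p = 2.95e-05), making 3 in place of 2 hosts higher in IP.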
